A study of Triticum aestivum with 42 samples.

Results

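The leaf of the winter wheat variety Harnesk was compared between 9 and 5 weeks after germination on the Affymetrix Wheat Genome Array. The members were chosen by label: 2 leaf arrays at 9 weeks and 2 at 5 weeks, which are 4 of the 42 arrays of the series and 4 of the 12 arrays of Harnesk. The 5 week plants had days of 14°C, nights of 10°C, a photoperiod of 12 h and a PAR of 185, and the 9 week plants days of 8°C, nights of 4°C, a photoperiod of 9 h and a PAR of 95. All plants had first grown until 3 weeks with days of 16°C, nights of 14°C, a photoperiod of 14 h and a PAR of 280, and temperature, day-length and light intensity then declined together in steps, so their effects cannot be told apart in this comparison, nor from plant age. RNA came from leaves pooled over several plants, and the replicates are labelled as biological. The other arrays used here are crown tissue of Harnesk under the same conditions, which holds the shoot apex with some stem and leaf bases, the 3 week arrays of both tissues, and single leaf arrays of the winter variety Solstice grown under the same day-lengths and light without the fall in temperature.

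Winter cereals respond to falling temperature by acclimation to cold and by vernalisation, the acquisition of competence to flower. In the leaf, cold and weaker light are known to alter carbon metabolism, with sugars and fructans (polymers of fructose stored in the vacuole) as reserves, and to alter photosynthetic and defence proteins. The circadian clock and the photoperiod pathway measure day-length in the leaf, and VRN1, a MADS-box transcription factor of cereals, is induced by prolonged cold and promotes flowering.

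Values are ratios of a probe-set's signal to its own median over arrays, so that 1 is the typical level of that probe-set and levels of different probe-sets cannot be compared. Changes are differences of log2 values from limma, with adjusted p the Benjamini-Hochberg value over 61179 probe-sets. A probe-set was called when its adjusted p was below 0.05 and it changed at least 2-fold; it passed the test when its adjusted p alone was below 0.05. Replicate arrays of Harnesk had rank correlations of 0.815 to 0.847. Leaf identity was checked on 38 probe-sets of 7 leaf marker genes (such as rbcl, PRK and CAT1), most of them of rbcl. Of these, 19 were at least 2-fold higher in leaf than in crown at 5 weeks and 17 at 9 weeks, and 1 was at least 2-fold higher in crown at either time. The median leaf minus crown difference of these leaf markers was 0.99 at 5 weeks and 0.78 at 9 weeks on the log2 scale. Of 18 histone probe-sets, which mark dividing tissue, 17 were at least 2-fold higher in crown at either time. Their median leaf minus crown difference was -7.02 and -6.97 on the log2 scale. None of 17 probe-sets of seed storage genes stood 2-fold apart between the tissues at 5 or 9 weeks. In these bulk samples fewer cells of a type and less RNA per cell cannot be told apart.

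From 5 to 9 weeks 3519 leaf probe-sets were called, 5.75% of those tested, and rises outnumbered falls. There were 2653 rises (4.34%) and 866 falls (1.42%), from 2093 and 711 transcript clusters, and 334 rises and 42 falls reached 5-fold (0.615% of those tested). With quantile normalisation the rises alone were fewer, at 1717 rises and 881 falls of 2-fold and 190 rises and 47 falls of 5-fold. The 2 arrays of 1 time did not overlap those of the other for any of the 3519, as for 57.8% of all probe-sets. At an adjusted p below 0.05 whatever the fold, 15156 probe-sets passed (24.8%), of which 9088 rose (14.9%) and 6068 fell (9.92%), and the median change of all probe-sets was -0.05. In crown the same step gave 971 calls (1.59%), 499 rises (0.816%) and 472 falls (0.772%), and at any fold 2.61% rose and 4.64% fell. The small excess of crown rises turned over with quantile normalisation (847 rises and 924 falls) and with median centring (484 and 530). The test of the difference between the leaf and crown changes called 5527 probe-sets (9.03%), 4052 higher (6.62%) and 1475 lower (2.41%) in leaf (2630 and 2054 with quantile normalisation), among them 2021 of the leaf rises and 570 of the leaf falls. The rises called in both tissues numbered 261, which is 9.84% of the leaf rises and 52.3% of the crown rises. The falls called in both numbered 48, or 5.54% of the leaf falls and 10.2% of the crown falls.

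**Figure D1:**
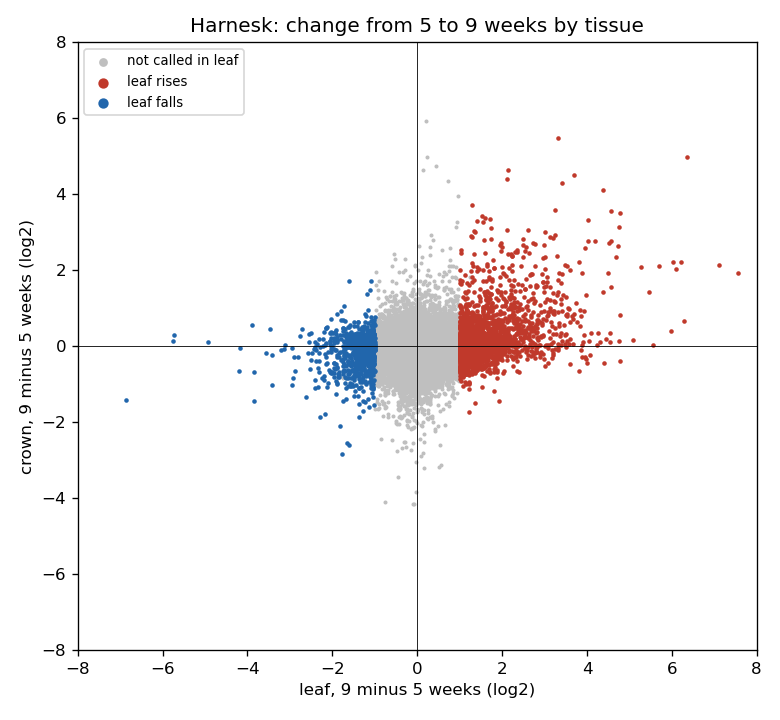
Change from 5 to 9 weeks in leaf (x axis, log2) against crown (y axis, log2) for 61179 probe-sets, each a point, with the 2653 leaf rises in red, the 866 leaf falls in blue and the rest in grey. The cloud of leaf rises spreads along the x axis, and 261 of its points were called as rises in crown too.

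The 3 week arrays, which the contrast does not use, showed where the called transcripts were abundant before. The leaf falls came mostly from transcripts of leaf: 53.3% of them were at least 2-fold higher in leaf than in crown at 3 weeks and 16.6% in crown, against 12.4% and 18.5% of all probe-sets. The rises of 5-fold or more also lay on the leaf side, with 54.2% higher in leaf and 15.9% in crown. The rises as a whole were mixed, with 27.1% higher in leaf and 37.6% in crown.

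In the Solstice controls, without cooling, 42.1% of the Harnesk leaf rises were at least 2-fold higher at 9 than at 5 weeks, against 10.8% of all probe-sets. For the rises of 5-fold or more this share was 31.4%. Of the Harnesk leaf falls 10.7% were at least 2-fold lower, against 2.94% of all. Nearly as many of the falls, 8.78%, were at least 2-fold higher, and their median control change was -0.08. These are single arrays of another variety with no test. The 9 week control leaf stood apart, since its rank correlation to the remaining control leaves averaged 0.101. The averages of those leaves, 0.436 and 0.445, each include the low correlation with the 9 week array and so understate their likeness to each other. Every 9 week control leaf value given below comes from this array. Called histone probe-sets also lay far higher in the control leaves than in Harnesk leaf. H2A-9 was at 0.579 and 1.21 at 5 and 9 weeks on a probe-set at 0.019 to 0.045 in Harnesk leaf. wcH2B-8 was at 1.14 and 0.536 on one at 0.072 to 0.162. Whether tissue content or scaling differed was not tested.

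Of the 1273 probe-sets with a gene symbol, 182 were called (14.3%, against 5.75% of all probe-sets), 138 as rises and 44 as falls, for 100 and 37 of 771 genes, with no gene called both ways. Most of these symbols are locus numbers, whose products the annotation used here does not name, and the largest changes among them are given first by value alone. LOC543330 stood at 4.71 and 1.19 in the 5 week leaves and at 35 and 37.1 in the 9 week leaves. The rise of 15.2-fold (log2 3.93, SE 0.45, adjusted p = 4.6e-05) was larger than the gap between the 5 week replicates, of which the first was much the higher. LOC543383 rose from 1.38 and 1.26 to 18 and 19.8, or 14.3-fold (log2 3.84, SE 0.14, adjusted p = 5.5e-09), and its other probe-set by 3.61. Its replicates lay close together at both times. LOC606308 rose from 0.278 and 0.382 to 3.82 and 3.60 (log2 3.51, SE 0.19), and by 3.31 on its other probe-set. LOC543422 stood at 7.65 and 2.63 and then at 48.7 and 47.3, a log2 rise of 3.42 (SE 0.35), with rises of 3.34 and 1.98 on its other probe-sets. The remaining 8 of the 12 largest rises, LOC543317, LOC543251, LOC543287, LOC100037518, LOC543438, LOC542773, LOC542774 and LOC100037560, ranged from 3.38 down to 2.79, all with adjusted p of 1e-05 or less. Quantile normalisation lowered 7 of the 12 by over 1.5 times, all still called: LOC543330 to 3.27, LOC543383 to 3.03, LOC606308 to 2.86, LOC543422 to 2.68, LOC543317 to 2.56, LOC543287 to 2.37 and LOC100037560 to 1.99.

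These 12 genes did not behave alike outside the cooled leaf. LOC543251 rose more in crown, by 5.49, than in leaf, by 3.32, and the difference of -2.17 passed the test (adjusted p = 0.00014). On the probe-set with its largest change, each of the other 11 rose more in leaf than in crown by at least 2-fold with the test of the difference passed, from LOC100037518 (difference 3.53, adjusted p = 9.4e-06) to LOC543438 (1.28, adjusted p = 0.018). LOC543422 met this on 1 of its 3 probe-sets only (1.53, adjusted p = 0.042), since the difference was 1.41 (adjusted p = 0.059) on the second and -0.55 (adjusted p = 0.44) on the third. In the control leaves 6 of the 12 were at least 2-fold higher at 9 than at 5 weeks, among them LOC543330 (2.39 and then 16.5) and LOC543287 (1.52 and then 17.0). Both had been higher still in the control at 3 weeks, at 37.3 and 37.0. LOC543383 went from 1.90 to 0.994 in the control, LOC606308 from 0.902 to 1.07 and LOC542773 from 0.018 to 0.016, while LOC543251 was lower, at 1.1 and then 0.228. The 5 week Harnesk replicates lay over 2-fold apart for LOC543330, LOC543422 and LOC543317, and without the first 5 week array their rises were 4.92, 4.19 and 3.97, without the second 2.94, 2.65 and 2.78, called in each case.

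The largest fall was that of LOC100037609, from 1.55 and 1.51 to 0.110 and 0.104, or 14.3-fold (log2 -3.84, SE 0.12, adjusted p = 1.7e-09), with changes of -3.57 and -3.42 on its other probe-sets. In crown the change was -0.69, and the tissues differed by -3.15 (adjusted p = 6e-07). LOC543104 was at 7.10 and 14.2 and then at 2.18 and 1.60 (log2 -2.43, SE 0.29). GLU1A, a beta-glucosidase that acts on the stored glucosides of benzoxazinoid defence compounds, fell from 0.873 and 1.16 to 0.226 and 0.176, or 5.05-fold (log2 -2.34, SE 0.16, adjusted p = 6.9e-07), after a change of -1.62 between 3 and 5 weeks. The remaining 9, LOC100037577, LOC543127, LOC543189, LOC543145, LOC543329, LOC543398, LOC100037585, LOC543137 and LOC543147, changed by -2.28 to -1.77. On the probe-set with the largest change, all of the 12 but LOC543137 and LOC543147 fell more in leaf than in crown. LOC543137 changed by -1.81 in leaf and -2.09 in crown, and the difference of 0.28 (SE 0.21) did not pass the test, while LOC543147 fell by 1.77 in leaf and by 2.84 in crown. In the controls 3 of the 12 were at least 2-fold lower at 9 than at 5 weeks, and LOC543398 was higher, at 1.44 and then 3.31.

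**Figure D2:**
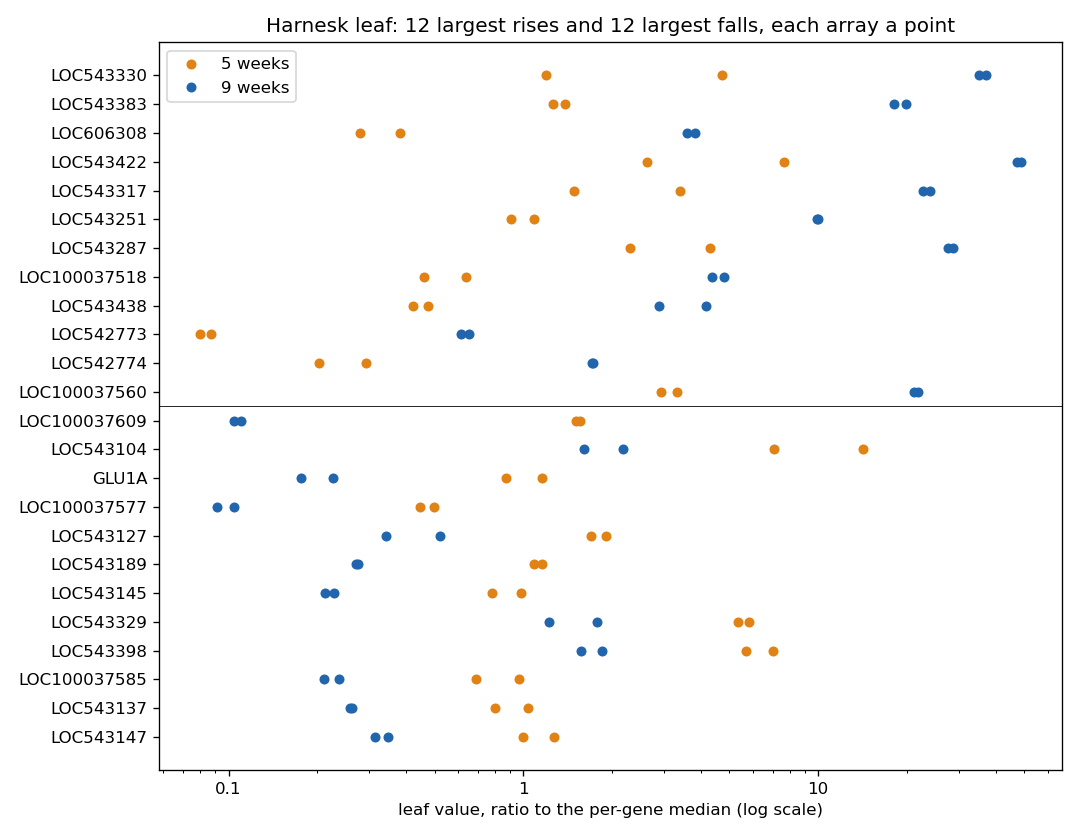
Values of the 12 genes with the largest rises (above the line) and the 12 with the largest falls (below it) in each Harnesk leaf array at 5 weeks (orange) and 9 weeks (blue), as ratios to the per-gene median on a log axis. No blue point lies between the orange points of its gene, and the widest orange pair is LOC543330, at 4.71 and 1.19.

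Probe-sets with no symbol showed the widest changes of all. A probe-set of cluster Ta.21768 was at 0.049 and 0.068 and rose to 10.9 and 10.8 (log2 7.56, SE 0.39), with 1.92 in crown, and the second probe-set of that cluster rose by 7.12. A probe-set of cluster Ta.25062 fell from 4.54 and 5.09 to 0.043 and 0.039 (log2 -6.87, SE 0.13) and one of cluster Ta.1345 by 5.75. The lower pair of leaf values lay under 0.1 for each of these 4 probe-sets, so the size of such folds rests on low ratios.

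The named genes of carbon metabolism fell in the leaf where they passed, apart from a fructan-degrading enzyme. 6-FEH, fructan 6-exohydrolase, which releases fructose from fructans, was at 2.08 and 1.5 at 5 weeks and 6.00 and 5.83 at 9 weeks. It rose 3.34-fold (log2 1.74, SE 0.16, adjusted p = 1e-05) on this probe-set and by 1.34 on the second, while the third was at -0.18 (adjusted p = 0.31). In crown 6-FEH changed by 0.18, and the tissues differed by 1.56 (adjusted p = 0.0007). The control leaf went from 1.52 to 0.952. 1-FEH, which cleaves the other main linkage of fructans, changed by -0.04 (SE 0.12). The gene listed as amy1 with the synonym BMY1 (amylases, which degrade starch) was at 15.2 and 16.1 and fell to 6.04 and 4.72, or 2.93-fold (log2 -1.55, SE 0.18, adjusted p = 6.2e-05). It had stood at 23.2 and 18.7 at 3 weeks, its crown change was 0.24, and the control leaf went from 1.89 to 0.230. GBSS, granule-bound starch synthase, passed at -0.47 (adjusted p = 0.046), but not without the second 5 week array (-0.30) or the first 9 week array (-0.26), and AGP-S, a subunit of ADP-glucose pyrophosphorylase, changed by -0.08.

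Where genes of the photosynthetic carbon cycle and of peroxide removal passed the test, they fell in leaf, and those that passed in crown rose there, but most of their probe-sets did not pass. The spread of log2 values over all probe-sets was narrower at 9 than at 5 weeks in both tissues. The interquartile range of the leaf arrays was 0.706 and 0.727 at 5 weeks and 0.536 and 0.581 at 9 weeks. That of the crown arrays was 0.426 and 0.459 and then 0.351 and 0.338. Whether opposite changes in leaf and crown follow from this narrowing was not tested. Of 31 probe-sets of rbcl, FBP and PRK in leaf, 5 fell and none rose, with a median of -0.27, where 9.92% of all probe-sets fell and 14.9% rose. In crown 3 rose and none fell, where 2.61% of all rose. Since 28 of the 31 belong to rbcl, these counts are largely those of 1 gene. For rbcl, the large subunit of Rubisco, which fixes carbon dioxide, 4 of 28 probe-sets fell, 2 of them at least 2-fold. On the first of these it went from 5.71 and 9.33 to 2.77 and 2.10 in leaf (log2 -1.60, SE 0.31, adjusted p = 0.0021) and from 0.082 and 0.080 to 0.184 and 0.380 in crown (1.71, adjusted p = 0.0051), a difference of -3.31 (adjusted p = 0.00032). The second, at -1.05 (adjusted p = 0.023), was lost without either 5 week array or the second 9 week array, and each of the smaller falls (-0.67 and -0.52) without 2 of the 4 leaf arrays. rbcl is a chloroplast gene. FBP, fructose bisphosphatase, changed by -0.58 in leaf (adjusted p = 0.041), a pass lost without any 1 of the 4 leaf arrays, and by 0.93 in crown (adjusted p = 0.011).

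CAT1, a catalase that removes hydrogen peroxide, fell from 6.62 and 6.27 to 3.30 and 3.32 (log2 -0.96, SE 0.12, adjusted p = 0.00012), with 0.05 in crown, and its second probe-set was at -0.39 (adjusted p = 0.22). Prx1, a peroxiredoxin, fell on 3 of its 4 probe-sets in leaf, by 0.53 to 0.77, and rose in crown on the same 3, by 0.56 to 0.94. The smallest leaf fall was lost without the second 5 week array or either 9 week array. On the one with the widest change the leaf values went from 5.78 and 6.26 to 3.60 and 3.44. Trx-M, a thioredoxin of the chloroplast, passed at -0.41 in leaf, a pass lost without the first 5 week array or either 9 week array, and at 0.72 in crown. Over the 12 probe-sets of the antioxidant list 5 fell and none rose in leaf, and 5 rose and none fell in crown, where 9.92% of all probe-sets fell in leaf and 2.61% rose in crown. Of 5 probe-sets of OEE1, OEE2 and petC, subunits of the light reactions, only one of OEE2, a protein of the oxygen-evolving complex, fell (-0.61, adjusted p = 0.0054), and OEE1 was at -0.17 in leaf and 0.74 in crown. lgul, glyoxalase I, which detoxifies methylglyoxal, fell from 9.03 and 9.93 to 4.39 and 4.04 on one probe-set (log2 -1.17, SE 0.15), and on its other probe-set by 0.91 with a crown rise of 0.71. GAPN, the non-phosphorylating glyceraldehyde phosphate dehydrogenase, fell from 10.6 and 10.2 to 4.66 and 4.92 (log2 -1.12, SE 0.15).

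**Figure D3:**
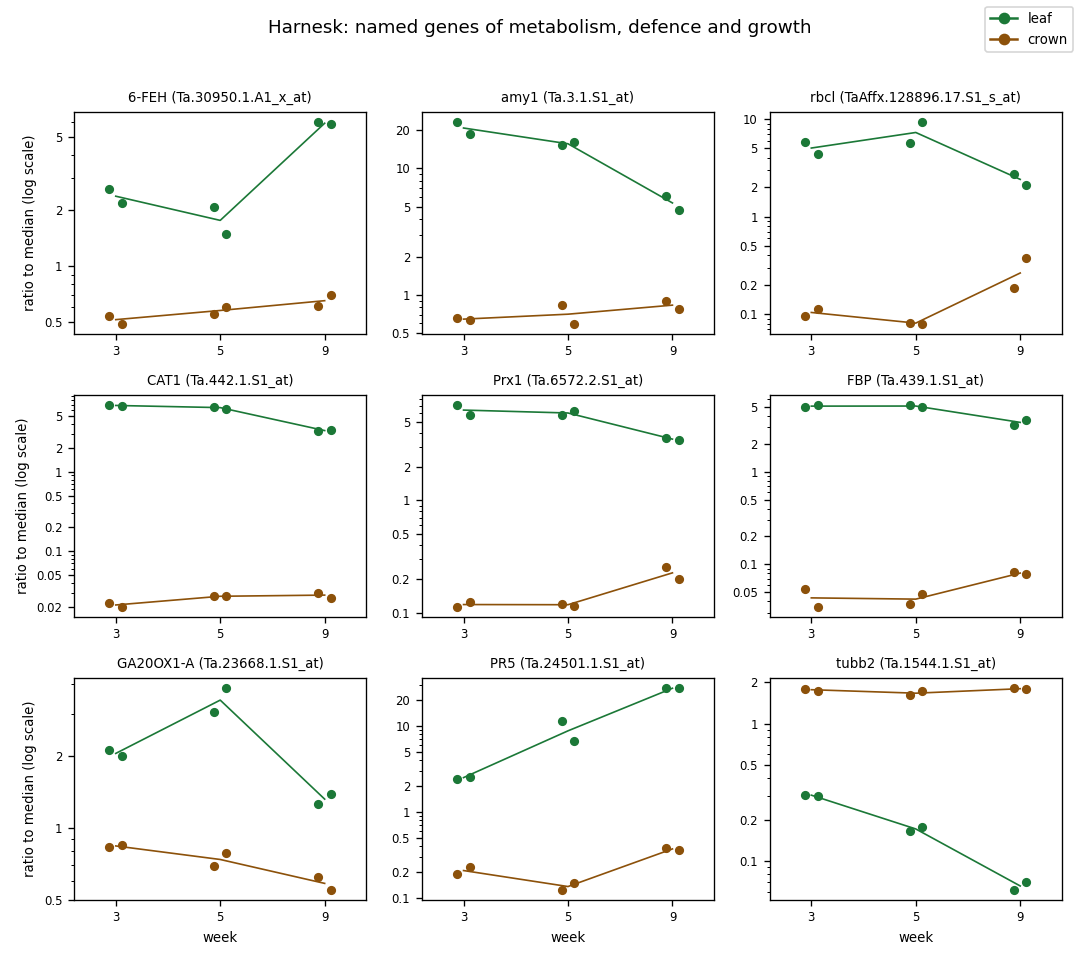
Values of 9 named genes in each Harnesk array at 3, 5 and 9 weeks, leaf in green and crown in brown, as ratios to the per-gene median on a log axis, with lines through the geometric means. From 5 to 9 weeks 6-FEH and PR5 rise in leaf, while amy1, rbcl, CAT1, Prx1, FBP, GA20OX1-A and tubb2 fall there.

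Genes of growth and cell structure moved in both directions. tubb2 and tubb1, beta-tubulins of the microtubules, fell by 1.38 (0.165 and 0.178 to 0.062 and 0.070, adjusted p = 5.4e-06) and 1.12, after changes of -0.82 and -0.55 between 3 and 5 weeks. tubb3 rose by 0.62, and one of 2 alpha-tubulin probe-sets (TUBA) by 0.48. In all, 2 of 10 tubulin probe-sets rose and 2 fell, where 14.9% of all probe-sets rose and 9.92% fell. The rises of tubb3 and TUBA were lost with quantile normalisation (0.26 and 0.13). wcH2B-8, a histone H2B, fell on 5 of 7 probe-sets, by 0.52 to 1.11 (the smallest lost without any 1 of the leaf arrays). H2A-9, a histone H2A, rose on 2 of 6, by 1.18 and 1.23, and its other probe-sets, at -0.57 to -0.09, did not pass. The leaf levels of these 2 genes are the lower end of the crown to leaf contrast given above: H2A-9 was at 0.022 and 0.017 and then at 0.048 and 0.043 in leaf on one of the rising probe-sets. H2A-3, another histone H2A, passed at -0.56 on one probe-set, a pass lost with quantile normalisation (-0.49). Of 18 histone probe-sets 2 rose and 6 fell, against the shares of all probe-sets just given. The 2-fold call of wcH2B-8 at -1.02 slipped to -0.86 without the first 9 week array and to -0.97 with median centring, and that at -1.11 to -0.68 without the first 5 week array and -0.85 without the second 9 week array. XTH, a xyloglucan endotransglucosylase that remodels cell walls, fell by 0.73 in leaf and 0.95 in crown.

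None of the 5 probe-sets of the cold acclimation list passed the test in leaf, where 24.8% of all probe-sets passed. The annotated members were few: COR410, a dehydrin of wheat induced by cold, was at 1.08 and 1.73 at 5 weeks and 1.12 and 1.09 at 9 weeks (log2 -0.30, SE 0.20), 3 probe-sets of rab, a dehydrin-type gene, ranged from 0.03 to 0.19, and LEA was at -0.13. One rab probe-set rose in crown, by 1.33 (adjusted p = 0.00038). No annotated probe-set matched the CBF/DREB factors that switch on cold-regulated genes.

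Among defence genes PR5, a thaumatin-like pathogenesis-related protein, stood out. It was at 2.43 and 2.56 at 3 weeks, 11.4 and 6.69 at 5 weeks and 27.2 and 27.5 at 9 weeks, with no overlap between times. The step from 5 to 9 weeks was 3.14-fold (log2 1.65, SE 0.21, adjusted p = 9.5e-05), and 0.79 with quantile normalisation. Crown rose by 1.45, from 0.124 and 0.146 to 0.381 and 0.357, and the difference between the tissues of 0.20 did not pass (adjusted p = 0.68). Glc1, a beta-glucanase, rose by 0.70 on 1 of 2 probe-sets. THI1.1, a thionin, passed at -0.55 on 1 of 2, a pass lost without the second 5 week array or either 9 week array. Of the 16 defence probe-sets 13 did not pass, where 24.8% of all probe-sets passed.

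The other genes with a name beyond a locus number that were called, all of which are given here, were 5 rises. They lie outside the rule for named genes, as do lgul and GAPN above, and were chosen after their values were seen. WZF1, a zinc finger protein, went from 1.14 and 1.87 to 4.00 and 4.81 (log2 1.59, SE 0.24). TBP1, the TATA-binding protein of the basal transcription machinery, went from 0.232 and 0.240 to 0.749 and 0.588 (1.49, SE 0.13). xip, a xylanase inhibitor, rose by 1.41 and 1.22, FKBP70, a peptidyl-prolyl isomerase, by 1.19 and Hmgb3, an HMG-box chromatin protein, by 1.13 and 1.07. Of these, FKBP70 and both probe-sets of Hmgb3 stayed under 2-fold with quantile normalisation, at 0.89, 0.69 and 0.63. DMAS1, an enzyme of the phytosiderophore pathway for iron uptake, rose in leaf by 0.83 and 0.51 without reaching 2-fold, was at 0.27 on the remaining probe-set, and fell in crown by 0.53 on the second.

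Early and late genes of the gibberellin pathway changed in opposite directions in leaf. Gibberellins are growth hormones, and ent-kaurene synthase and ent-kaurene oxidase catalyse early steps of their synthesis, while the 20-oxidases act late. ent-kaurene synthase was at 2.67 and 1.59 at 5 weeks and 12.1 and 7.73 at 9 weeks, a rise of 4.69-fold (log2 2.23, SE 0.27, adjusted p = 8.6e-05), with 0.90 (adjusted p = 0.029) on its second probe-set, a pass lost without the second 5 week array (0.69) or the first 9 week array (0.42). ent-kaurene oxidase was at 1.96 and 1.61 and then at 5.18 and 5.28, or 2.95-fold (log2 1.56, SE 0.16, adjusted p = 1.6e-05). In crown they changed by -0.13 and 0.12, and the differences between the tissues passed (2.36 and 1.44). The 20-oxidases went the other way: GA20OX1-A fell from 3.05 and 3.85 to 1.26 and 1.38 (log2 -1.38, SE 0.14, adjusted p = 2.1e-05), GA20ox1b from 2.26 and 2.25 to 1.2 and 1.23 (-0.90), and GA20ox1d on 1 of 2 probe-sets (-0.50), a pass lost without any 1 of the leaf arrays. RGA1, a DELLA repressor of gibberellin responses, was at -0.14 (SE 0.14). In the control leaf ent-kaurene synthase was at 9.66, 2.87 and 9.56 at 3, 5 and 9 weeks and ent-kaurene oxidase at 5.99, 1.22 and 4.97, so that in the control the 5 week array was the low one. GA20OX1-A was at 1.35, 1.34 and 2.57.

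The primers with which the study assayed 3 of the genes that rose in leaf are given here for their identity, since the annotation holds no transcript sequence for these probe-sets (the assays themselves were not analysed here).
ent-kaurene oxidase forward: cattctcctgtcccactggt
ent-kaurene oxidase reverse: gagccgaatgacatggtttt
TaVRN1 forward: gcgcaacaagatcagactca
TaVRN1 reverse: acgcttatatgggctggaag
TaAGL42 forward: ggctttggcgaaacaaaata
TaAGL42 reverse: tagcagccctggcaactaat

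Clock and light genes changed in the leaf. LHY, a MYB factor of the clock whose transcript peaks in the morning, fell on both probe-sets: one from 3.91 and 4.02 to 1.15 and 1.00 (log2 -1.89, SE 0.13, adjusted p = 8.9e-07), and the other from 4.83 and 4.69 to 2.76 and 2.57 (-0.84, adjusted p = 0.00036). At 3 weeks they had been at 1.12 and 1.03 and at 0.980 and 1.1, so that at 9 weeks the first overlapped its 3 week values and the second lay above them. TOC1, an evening gene that represses LHY in Arabidopsis, rose on 2 of 5 probe-sets, by 1.26 (0.541 and 0.561 to 1.42 and 1.23, adjusted p = 0.0008) and 0.76, and the other 3 were between -0.03 and 0.27. GI, a clock protein that links the clock to flowering, rose by 0.64 (1.06 and 1.08 to 1.69 and 1.64) after 2.08 and 1.86 at 3 weeks. Its crown rise of 1.96 was larger, by 1.33 (adjusted p = 0.00029). LHY fell in crown too, by 0.93 and 0.98. Harvest was in the middle of the light period, which lasted 12 h at 5 weeks and 9 h at 9 weeks, so time since dawn differed between the groups and cannot be told apart from them. In the control leaf LHY went from 1.62 to 3.08 and from 0.941 to 1.84, in the opposite direction, TOC1 from 0.340 to 0.432 and GI from 1.48 to 1.34.

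The photoreceptors rose moderately: CRY1/CRY2, blue light receptors sharing a probe-set, from 0.733 and 0.863 to 1.51 and 1.49 (log2 0.92, adjusted p = 0.00022), and the phytochromes PHYA by 0.72 and PHYC by 0.48, the last lost without the second 5 week array (0.36) or the first 9 week array (0.32). In the uncooled control leaf CRY1/CRY2 went from 0.497 to 0.696, PHYA from 0.654 to 2.2 and PHYC from 0.495 to 1.24. The 9 week values here are those of the control array that stood apart. CO, which in Arabidopsis activates FT in long days, fell by 0.55, and FT, the mobile flowering signal made in leaves, by 0.53 (1.49 and 1.93 to 1.07 and 1.30, adjusted p = 0.023). The FT pass was lost without the second 5 week or the first 9 week array. Over the photoperiod list 7 of 15 probe-sets rose and 3 fell, and over all 39 phase-transition probe-sets 15 rose and 6 fell, with a median of 0.22, where 14.9% of all probe-sets rose and 9.92% fell. The study chose the phase-transition probe-sets by sequence similarity to Arabidopsis genes.

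Of the 7 probe-sets of vernalisation and 8 of autonomous pathway homologues none reached 2-fold, where 5.75% of all probe-sets were called. VIL2, a plant homeodomain protein related to VIN3 of Arabidopsis, fell on both probe-sets by 0.62 and 0.69, with crown at -0.57 and -0.68, and the first of these was lost without the second 5 week array or the first 9 week array. VIL1, of the same family, rose by 0.76, EMF2, a Polycomb component, by 0.54 and FVE, a WD-repeat protein of the autonomous pathway, by 0.76 (0.300 and 0.291 to 0.504 and 0.498). FVE and EMF2 were at -0.27 and -0.38 in crown, and the differences of 1.03 and 0.92 passed. The VIL1 rise was lost without the first 5 week array, and that of EMF2 without the first 9 week array and with quantile normalisation (0.27). FCA, an RNA-binding protein, passed on 1 of 6 probe-sets, a pass lost without any 1 of the leaf arrays.

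Among 30 MADS-box probe-sets 7 rose and 3 fell, 3 of the rises by at least 2-fold on TaAGL42 and TaVRN1, where 14.9% of all probe-sets rose, 4.34% by at least 2-fold, and 9.92% fell. TaAGL42 was at 1.18 and 0.882 and rose to 3.71 and 3.60, or 3.59-fold (log2 1.84, SE 0.14, adjusted p = 2.1e-06), after 1.09 and 0.999 at 3 weeks. It rose in crown by 0.66, less by 1.18 (adjusted p = 0.0016), and the control leaf went from 1.78 to 2.54. TaVRN1 rose in leaf on 3 of 4 probe-sets. On the first it was at 0.227 and 0.189 and then at 0.680 and 0.538 (log2 1.55, SE 0.17, adjusted p = 2.9e-05), with no rise before, since it stood at 0.232 and 0.178 at 3 weeks. The crown rise, from 0.151 and 0.162 to 1.44 and 1.60, was larger by 1.74 (adjusted p = 0.00039). The rises on the second (1.02, adjusted p = 0.024) and the third (0.85, adjusted p = 0.021) were lost with quantile normalisation, that on the second also without either 5 week array or the first 9 week array, and that on the third without the second 5 week array or either 9 week array. The third had been at 0.652 and 0.895 at 3 weeks and was at 0.834 and 0.758 at 9 weeks, so these values overlapped. In the uncooled control leaf the first probe-set went from 0.283 to 0.755. TaAGL7 rose by 0.93, the shared probe-set of TaAGL20, TaAGL21 and TaAGL38 by 0.88 and TaVRT2, a MADS-box factor of the SVP type, by 0.69. TaAGL32 fell by 0.66 and TaAGL33 by 0.55 (20.3 and 23 to 16.6 and 13.2), passes lost without the first 9 week array for TaAGL32 and without the second array of either week for TaAGL33, and 20 of the 30 did not pass.

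**Figure D4:**
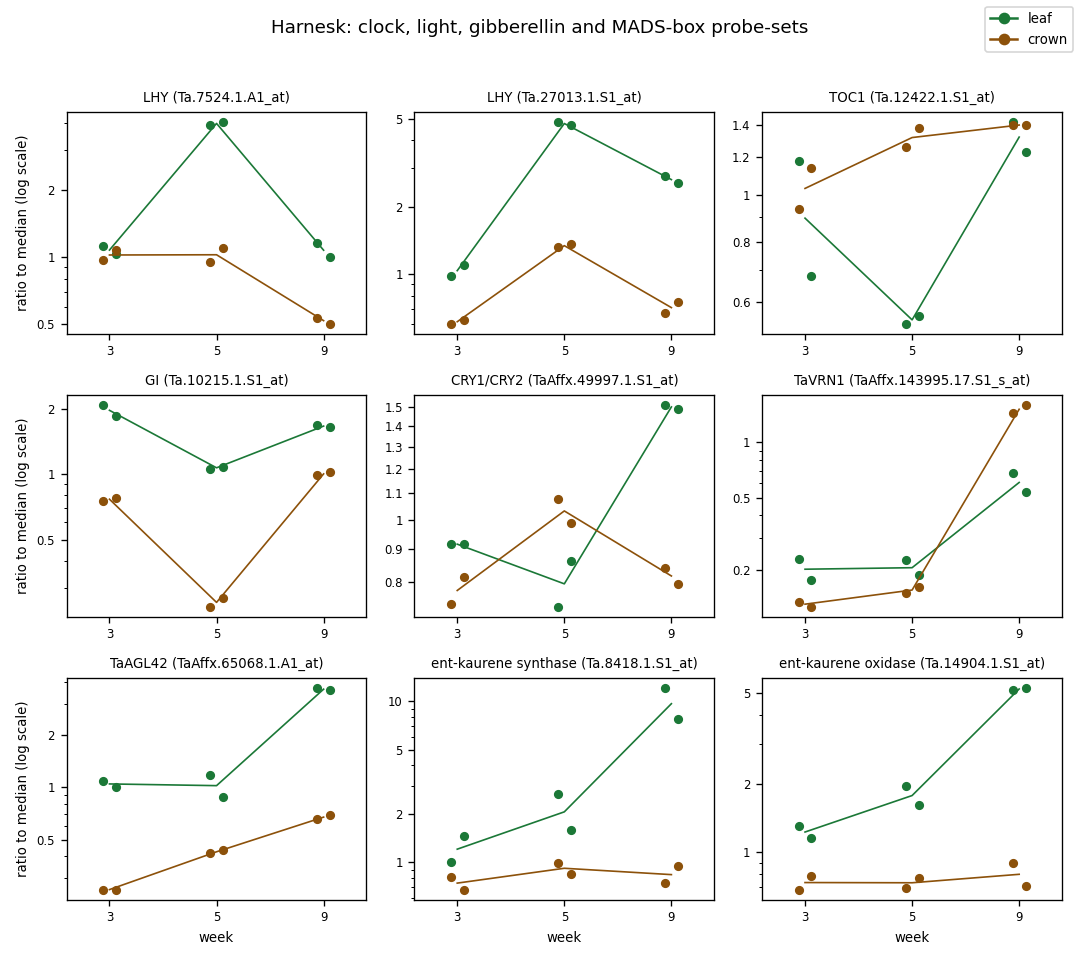
Values of 9 clock, light, MADS-box and gibberellin probe-sets in each Harnesk array at 3, 5 and 9 weeks, leaf in green and crown in brown, as ratios to the per-gene median on a log axis, with lines through the geometric means. LHY peaks at 5 weeks in leaf, and TaAGL42 and the ent-kaurene genes are highest at 9 weeks in leaf.

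The large rises were more even between replicates at 9 than at 5 weeks. Of the 334 rises of 5-fold or more, 27 had the first 5 week replicate at least 2-fold above the second and 2 the reverse, and none had 9 week replicates so far apart. Over all probe-sets 0.602% differed so at 5 weeks and 0.134% at 9 weeks, with the first array the higher in 149 and the second in 219 at 5 weeks. The first 5 week array thus stood nearer the 9 week level for that group of transcripts, and its removal raised the calls of 5-fold or more from 376 to 429. The calls were partly chosen by their small spread, so no test was made.

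**Figure D5:**
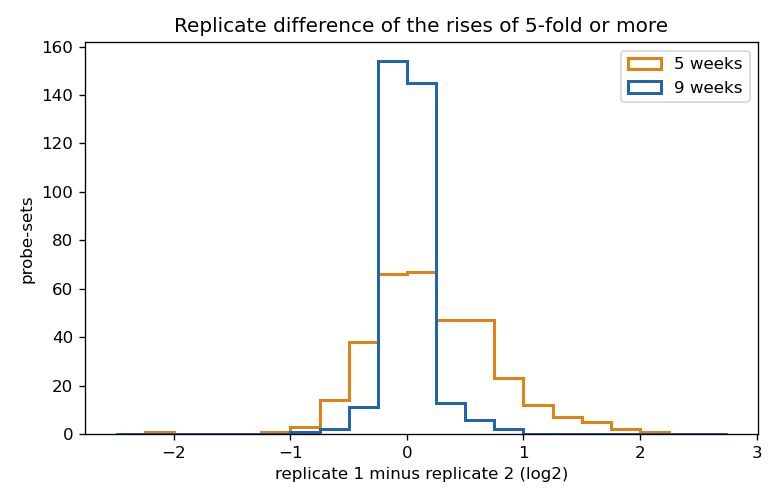
Distribution of the log2 difference between replicate 1 and replicate 2 over the 334 leaf rises of 5-fold or more, at 5 weeks (orange) and 9 weeks (blue). The 9 week differences gather near 0, while the 5 week ones have a tail to the right, with 27 beyond 1.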

How the data were processed

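RNA of pooled plants was hybridised to the Affymetrix Wheat Genome Array. The deposited values are linear ratios: per the submitters' processing notes the authors used RMA, and per the methods they divided each gene by its median. log2 of these values was tested with no further normalisation in limma 3.58.1 (R 4.3.3), as means of 6 conditions over 12 Harnesk arrays, with Benjamini-Hochberg adjustment over 61179 probe-sets after 111 control probe-sets were left out. Since 2 arrays against 2 cannot pass a permutation test, p-values rest on a spread shared across conditions and probe-sets. The procedure was run on simulated data with independent noise for each probe-set and array. That setting has no differences of scale between whole arrays, so it does not bear on their effect here. The annotated genes named are the 12 largest rises and falls, called genes of the lists and the probe-sets of the phase-transition and MADS-box tables. The members and lists were chosen with earlier results of these data known. Alternatives were another normalisation, centring, filters, other fits, a replicate block and each array left out. Same-numbered arrays did not deviate together (15 correlations from -0.0942 to 0.0707), so numbers were not taken to pair them. The 5 to 3 week values share the 5 week arrays with the main comparison. Other cooled varieties were not used here, since the order of their rows did not follow the probe-set names.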

Additional observations from a re-analysis of the deposited data

Results flagged for a closer look

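The 5 to 9 week change differed between leaf and crown, by the limma test of the difference itself, in 51 of the 96 named genes that passed in leaf, each given by its probe-set with the widest difference of at least 2-fold. Over all probe-sets the share called for this difference was 9.03%. The genes were chosen for their leaf change, from arrays that enter the difference, and among all leaf calls 76.2% of rises and 65.8% of falls were called for it. In the following, each value is the leaf change minus the crown change on the log2 scale. In 28 genes the leaf change lay above the crown change: LOC100037518 (3.53), LOC606308 (3.52), LOC543287 (3.1), LOC543330 (3), LOC543383 (2.88), LOC542774 (2.88), LOC100037560 (2.78), LOC542773 (2.66), ent-kaurene synthase (2.36) and LOC543317 (2.12). The next were 6-FEH (1.56), LOC543422 (1.53), ent-kaurene oxidase (1.44), TBP1 (1.44), FKBP70 (1.4), H2A-9 (1.39), xip (1.31), LOC543438 (1.28), TaAGL20/21/38 (1.27) and CRY1/CRY2 (1.25). The remainder were TaAGL42 (1.18), TOC1 (1.17), Glc1 (1.16), DMAS1 (1.16), LOC543147 (1.07), eIF-2-beta (1.07), FVE (1.03) and Hmgb3 (1.02).

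In 23 genes it lay below: rbcl (-3.31), LOC100037609 (-3.15), LOC543189 (-2.41), LOC543104 (-2.37), LOC100037577 (-2.25), LOC543251 (-2.17), LOC543398 (-2.02), LOC543329 (-1.84), amy1 (-1.79) and TaVRN1 (-1.74). The next were Prx1 (-1.72), lgul (-1.62), FBP (-1.52), tubb2 (-1.49), LOC543127 (-1.46), GI (-1.33), LOC543145 (-1.32), GLU1A (-1.27), Trx-M (-1.13) and LOC100037585 (-1.07). The remainder were GA20OX1-A (-1.05), CAT1 (-1.01) and AGA.1 (-1.01). These include genes that fell in leaf and did not pass in crown (amy1), that fell in leaf and rose in crown (rbcl, Prx1), and that rose more in crown (TaVRN1, LOC543251, GI).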

How the results depend on the processing

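The leaf calls of 2-fold or more ranged from 3527 to 4092, those of 5-fold or more from 353 to 429, the crown calls from 871 to 926, the calls for the difference between tissues from 5018 to 6415 and the called named probe-sets (53) from 50 to 51 when each array was left out in turn. Quantile normalisation gave 237 leaf calls of 5-fold or more and 1771 crown calls, against 376 and 971, and 2598 leaf calls of 2-fold or more; the cause was not tested. The methods' t-test gave 3125 leaf calls at an unadjusted p below 0.05, but after Benjamini-Hochberg adjustment 1 at 2-fold and 0 at 5-fold, 0 in crown and 0 of the named probe-sets. With the replicate number as a block, a number the arrays only share, the counts were 3519, 376, 965, 5516 and 53. The other alternatives kept all counts within 1.5 times. No named probe-set that passed the test in leaf changed direction, and those that did not pass were not checked. A further 53 named probe-sets passed in leaf below 2-fold. Of these, 31 no longer passed when only leaf arrays set the spread, CO among them (limma adjusted p = 0.059), and 24 with quantile normalisation. The call of TaVRN1 at 1.02 was also lost with leaf arrays only (limma adjusted p = 0.069). Crown rises outnumbered falls at first (499 and 472) and not with quantile normalisation (847 and 924) or centring (484 and 530). Signal over background is unknown from these ratios.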
